A study of Homo sapiens with 2 samples.

Results

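The genes ATF2, ATF7, CREB5, ATF3 and JDP2 encode basic leucine zipper (bZIP) transcription factors that recognise sites like the cAMP response element (CRE). They were taken by gene name from the list of ATF1 peaks in HCT116 cells, and all 5 were found among 15064 listed peaks. Being listed is how the members were chosen, so it is no result about them; 60.9% of all protein-coding genes are listed. HCT116 is a human colon adenocarcinoma line, and the series holds 1 chromatin immunoprecipitation (ChIP) library and 1 input DNA library. The ChIP library came from HCT116 cells that had received ATF1 carrying a 3xFlag tag, with an antibody to the tag; the input DNA of HCT116 cells had no antibody. Each was a single library, so what follows describes 1 library and its peak list, with no test between conditions. The list names 1 peak per gene, and values of a single peak carry an exact 95% Poisson interval on its tags, which covers counting error only.

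bZIP factors bind DNA as dimers, and the palindromic CRE is the classical site of the ATF and CREB families. ATF1, the precipitated factor, belongs to the CREB branch. ATF2, ATF7 and CREB5 form another branch, in which ATF2 and ATF7 are activated by stress kinases of the JNK and p38 families and can pair with JUN. ATF3, an immediate stress-response gene, and JDP2, the Jun dimerization protein, form a further branch and often act as repressors at CRE and AP-1 sites. The ChIP measures introduced, tagged ATF1, and the labels do not say how it was introduced or at what level. RNA was not measured, so neither the expression of the members nor markers of the cell line could be checked.

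The 3 promoter sequences are shown because they are the listed promoter windows, 250 bases before to 50 after a RefSeq start, that lay inside a member's peak and either had the start nearest the summit or held the 5-letter core of the CRE. They run 5′ to 3′ along the gene's strand in build GRCh38.p14, and capitals mark the core TGACG, extended to TGACGTC where those letters follow.
ATF7 start nearest the summit, chr12:53626333-53626632, minus strand: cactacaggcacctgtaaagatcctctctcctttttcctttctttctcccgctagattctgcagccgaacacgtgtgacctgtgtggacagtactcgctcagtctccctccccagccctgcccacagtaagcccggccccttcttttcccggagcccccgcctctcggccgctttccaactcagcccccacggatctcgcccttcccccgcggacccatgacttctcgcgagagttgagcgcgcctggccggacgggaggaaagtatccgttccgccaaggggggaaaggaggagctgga
ATF7 inner start, chr12:53625947-53626246, minus strand: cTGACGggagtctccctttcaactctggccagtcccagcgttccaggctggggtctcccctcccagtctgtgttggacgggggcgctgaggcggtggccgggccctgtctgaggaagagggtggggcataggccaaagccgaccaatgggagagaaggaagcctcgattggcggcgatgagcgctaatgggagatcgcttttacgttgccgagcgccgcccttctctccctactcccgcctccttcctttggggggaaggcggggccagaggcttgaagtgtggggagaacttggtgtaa
JDP2 start nearest the summit, chr14:75427772-75428071, plus strand: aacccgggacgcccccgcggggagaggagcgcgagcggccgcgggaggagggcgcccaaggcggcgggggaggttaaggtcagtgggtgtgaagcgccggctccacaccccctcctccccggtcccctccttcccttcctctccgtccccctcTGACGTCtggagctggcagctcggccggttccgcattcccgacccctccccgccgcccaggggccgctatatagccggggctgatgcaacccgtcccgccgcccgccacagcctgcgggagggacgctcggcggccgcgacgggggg
A microRNA gene lay inside the ATF2 peak, and the mature hsa-miR-933 is given with its seed, bases 2 to 8, in capitals (chr2:175167642-175167663, minus strand).
hsa-miR-933: uGUGCGCAgggagaccucuccc

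The listed peak had 11.32-fold enrichment or more at 4 of the 5 genes, and 7.46-fold at JDP2. Fold enrichment is the authors' ratio of the peak to a background that is not specified. A fold enrichment of at least 10 was reached by 4 of the 5 members and by 23.9% of all listed peaks. The median over the members was 14.62-fold, against 6.97-fold over all listed peaks. The order was ATF7 at 15.11-fold, CREB5 at 14.97-fold, ATF2 at 14.62-fold, ATF3 at 11.32-fold and JDP2 at 7.46-fold. With 1 library, no spread between replicates was available to separate neighbours in that order.

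The ATF2 peak lay at an outer end of the gene and held a microRNA gene. End here means either outer limit of the gene, whether transcription starts or stops there. It spanned 1624 bp (chr2:175167265-175168888, hg38) with 170 tags (interval 145 to 198), a tag being, in the usual sense, a sequenced read counted in the peak. Its summit was 303 bp inside the nearest RefSeq end of ATF2, a gene of 95945 bp, and the authors classed the peak as intronic. MIR933, a hairpin of 77 bp, was 191 bp from the summit and 494 bp inside the gene's end. Overlap with a microRNA hairpin was seen for 1.14% of listed peaks (172 of 15064), and for 1 of the 5 members. The peak therefore covers the outer end of ATF2 and the microRNA gene together. No promoter window was used for ATF2.

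The ATF7 peak was centred on the gene's outermost start. It spanned 1539 bp (chr12:53625579-53627117) with 162 tags (interval 138 to 189) and was classed as upstream. Its summit was 52 bp upstream of the RefSeq start, which ATF7 shares with the readthrough gene ATF7-NPFF, so the peak cannot be divided between these genes. By the gene end in the authors' table the summit was 19 bp outside. The other listed starts of ATF7 lay 438 and 444 bp inside the gene from the summit, and their windows were also within the peak. ATF2 and ATF7 had the most similar peaks of the 10 possible pairs (summed absolute log2 ratios of fold enrichment, tags and length of 0.19). Likeness did not follow the branches throughout. The sum was 2.54 for ATF3 and JDP2 of the same branch, and 1.36 for CREB5 and JDP2 of different branches. The listed peak of KDM4A was nearer to ATF2 (0.09), and that of MTM1 nearer to ATF7 (0.07), than ATF2 and ATF7 were to each other. ATF2 had 1.05 times the tags, 0.968 times the fold enrichment and 1.06 times the length of ATF7.

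The CREB5 peak lay deep in the longest of the genes. CREB5, the remaining gene of the ATF2 branch, covers 526574 bp, and the intronic peak (chr7:28408125-28410658, 2534 bp) had its summit 109882 bp from the nearest outer end. It held 349 tags (interval 313 to 388), 2.05 times those of ATF2. The nearest of the gene's 3 listed starts was 3315 bp beyond the summit, in the direction of transcription. Its promoter window was 1610 bp outside the peak. The peak therefore covered no listed start of CREB5.

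The ATF3 peak held the most tags and was the longest of the members'. It spanned 3865 bp (chr1:212606301-212610165) with 683 tags (interval 633 to 736), at 11.32-fold, and was classed as exonic. Only 460 of all listed peaks had more tags. The summit lay 43285 bp after the first listed start of ATF3 and 6326 bp before the second, and neither start was inside the peak. The listed starts are incomplete, as ATF2 has none and the RefSeq outer starts of CREB5 and JDP2 are not among them. A start of ATF3 that is not listed could therefore lie within the peak, and this was not tested. The nearest outer end of the gene was 12085 bp away.

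The JDP2 peak lay among several starts of the gene. It spanned 2119 bp (chr14:75426847-75428965) with 326 tags (interval 292 to 363) and was classed as intronic. The 3 listed starts of JDP2 were 204 bp before, 94 bp after and 429 bp after the summit. A start of the long noncoding RNA JDP2-AS1, which runs on the opposite strand, was 273 bp from the summit. ChIP tags carry no information on which of these genes a peak belongs to. The summit was 985 bp inside the RefSeq end of JDP2, just within the limit of 1 kb used here for a gene-end peak, and 1243 bp inside the end given in the authors' table, just beyond it.

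**Figure D1:**
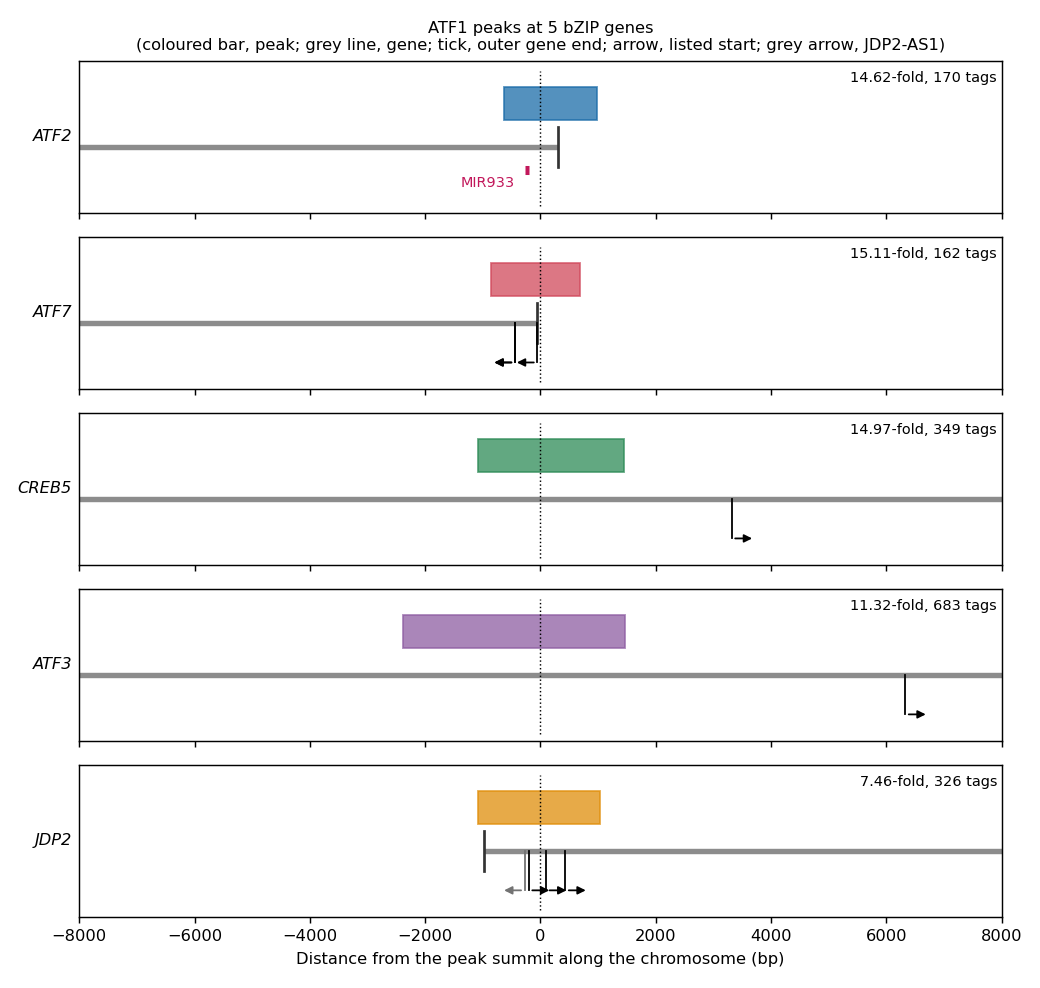
Position of the ATF1 peak at each member, with distance from the summit in bp on the horizontal axis. The peaks of ATF2, ATF7 and JDP2 cover an outer gene end, whereas those of CREB5 and ATF3 lie inside the gene with the nearest listed start 3315 and 6326 bp from the summit. The listed starts are incomplete, so a start that is not listed could lie within these peaks.

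By outer ends, 3 of the 5 members (ATF2, ATF7 and JDP2; exact 95% binomial interval 14.7 to 94.7%) had a gene-end peak, a share like the 60.3% of listed peaks with a matched gene (8537 of 14154). With the ends of the authors' table the members were 2 of 5, against 59.9% of all listed peaks. By listed starts, 2 of the 4 members that had any (ATF7 and JDP2) had the summit within 1 kb of one, against 63.7% of 11070 listed peaks. These shares do not set the members apart from the list.

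The members ranked differently by different measures. ATF2 and ATF7 were above 89.6% and 90.3% of all listed peaks in fold enrichment, but above only 51.3% and 49.9% in tags. Their lengths were also close to the median of the list, 1551 bp. ATF3 went the other way, above 82.0% of peaks in fold enrichment and above 96.9% in tags and 95.2% in length. CREB5 was high by each measure, above 90.1% in fold enrichment, 79.7% in tags and 85.3% in length. JDP2 was above 56.6% in fold enrichment, near the middle of the list, and above 77.0% in tags. By the authors' score, whose basis is not stated, the order was ATF3 (1469.84), CREB5 (722.82), ATF2 (684.71), ATF7 (656.65) and JDP2 (398.52), against a median of 153 over the list. Per kb of peak, the tags were 177 at ATF3, 154 at JDP2, 138 at CREB5, and 105 at both ATF7 and ATF2, against a median of 88.2.

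**Figure D2:**
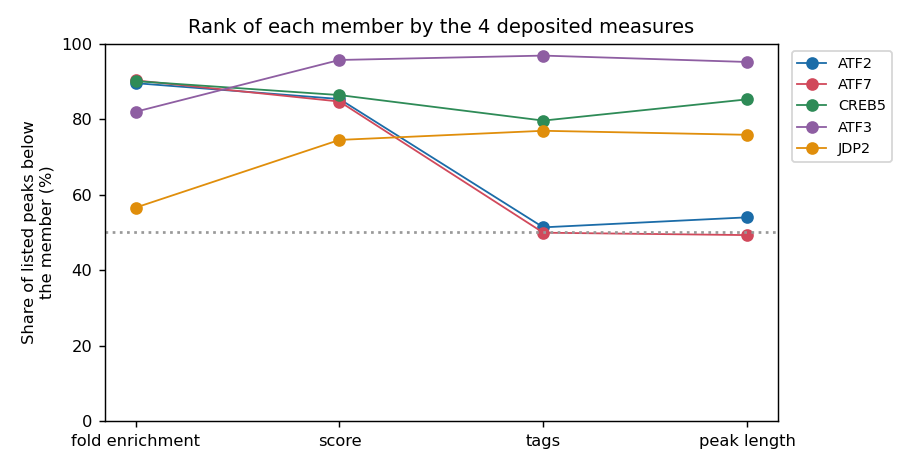
Share of all 15064 listed peaks, in percent, that lay below each member by fold enrichment, score, tags and peak length. ATF2 and ATF7 run together, from near 90% in fold enrichment to near 50% in tags, whereas ATF3 lies above 95% in score, tags and length.

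Fold enrichment was also ranked among peaks of similar length. Among listed peaks within 20% of its length, ATF3 was above 89.5% in fold enrichment (832 peaks, median 5.10-fold), and CREB5 above 92.3% (2726 peaks, median 6.08-fold). ATF2 was above 85.0% and ATF7 above 85.6% of peaks of their length, and JDP2 above 61.0%. The order among the members thus changed, with CREB5 and ATF3 above ATF2 and ATF7. Within the authors' classes, CREB5 was above 95.2% and ATF2 above 94.8% of the 5102 intronic peaks in fold enrichment, and JDP2 above 62.8% of them. ATF7 was above 84.9% of the 2996 upstream peaks, and ATF3 above 79.8% of the 6559 exonic peaks.

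Among peaks more than 10 kb from both outer ends of the assigned gene, those of CREB5 and ATF3 were high in the list. Of the listed peaks with a matched gene, 1927 had the summit more than 10 kb from both outer ends of the assigned gene, with a median of 50 tags and 6.84-fold enrichment. CREB5 was above 97.0% of them in fold enrichment and above 92.4% in tags, and 20 peaks exceeded it in both. ATF3 was above 92.3% in fold enrichment and above 98.5% in tags, and 5 peaks exceeded it in both. Of the 205 peaks more than 100 kb from both ends, 5 had a higher fold enrichment than CREB5 and 9 had more tags. Among the 8537 gene-end peaks, with medians of 226 tags and 7.43-fold, ATF2 was above 84.8% and ATF7 above 85.8% in fold enrichment, but above only 36.4% and 34.7% in tags. JDP2 was above 50.2% of them in fold enrichment and above 69.4% in tags. These sets were chosen after the positions of the peaks were known, and the ranks are a description of them. The deep set was defined by outer ends alone, so it can include peaks at starts inside a gene.

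**Figure D3:**
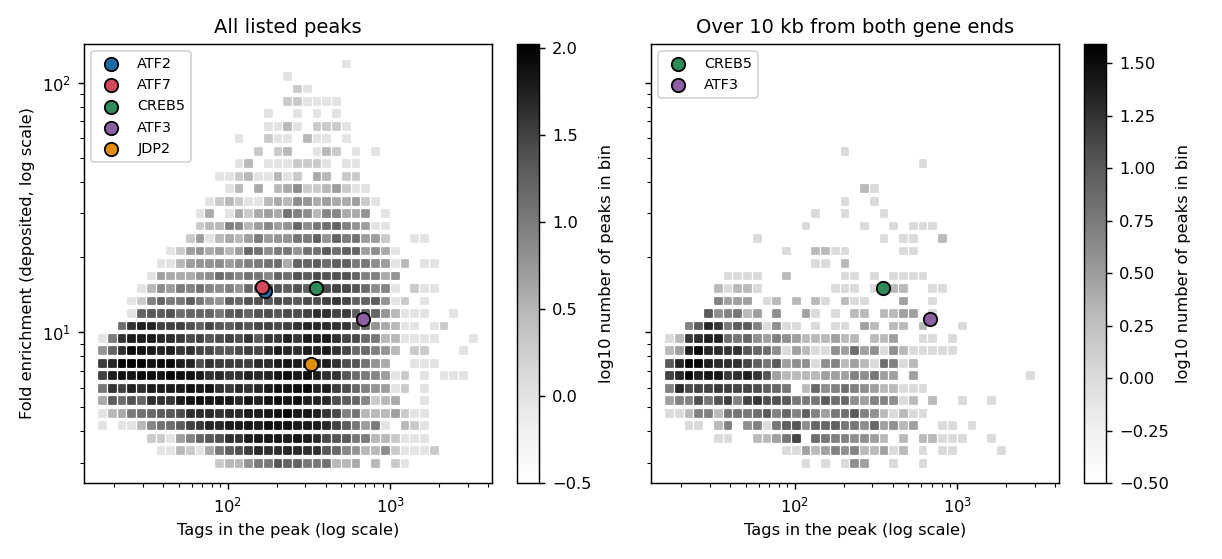
Fold enrichment against tags per peak, both on log scales, for all listed peaks on the left and for the 1927 peaks over 10 kb from both gene ends on the right; grey squares are bins shaded by the log10 number of peaks. On the right CREB5 and ATF3 lie away from the bulk of these peaks, whose median is 50 tags. Starts inside a gene were not considered in choosing them.

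The sequence under the summit was available for JDP2 and ATF7. The motifs searched on both strands were the full CRE, TGACGTCA, its core TGACG, and the AP-1 site TGANTCA; the 7-letter forms TGACGTC and GACGTCA and the 6-letter form TGACGT were added after the sequences had been read. The full CRE contains all the shorter forms, each of the 6-letter and 7-letter forms contains the core, and the AP-1 site does not. None of the 11 listed windows of the members held the full CRE, which 1.85% of all 35116 windows hold. The core was present in 2 of the 11 windows, against 24.6% of all windows. Only 6 of the 11 windows overlapped the member's peak, and those of the inner ATF7 starts covered nearly the same bases. The 2 windows with the core were among these 6. Of all windows that overlap a listed peak, 35.7% hold the core. The AP-1 site was in 1 window of CREB5, 276886 bp from the summit and outside the peak, against 7.71% of all windows.

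In the JDP2 sequence shown above, the letters TGACGTC cover chr14:75427925-75427931, and the summit at position 75427928 is the middle letter. They begin 97 bases before the start. These 7 letters or their reverse complement are found in 3.45% of all windows, and the 6-letter form in 7.98%. Of the 5332 listed peaks with the summit inside a listed window, 461 (8.65%) held the 7 letters there, at a median of 24 bp from the summit. They were centred on the summit in 16 of these 461 peaks, JDP2 among them, and within 3 bp of it in 50. Within 10 bp of the summit they were found in 138 (29.9%), and within 25 bp in 240 (52.1%). Those 461 peaks had a median of 15.42-fold enrichment, against 8.14-fold for the peaks without the 7 letters. JDP2, at 7.46-fold, exceeded 53 of them (11.5%) in fold enrichment, and 319 of the 461 (69.2%) had more tags. By the core TGACG, which was not added afterwards, 2361 peaks held a match in the summit window, with a median of 11.07-fold. JDP2 exceeded 568 of these (24.1%) in fold enrichment.

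ATF7 was the reverse case. The window that holds its summit, the first sequence above, has no core on either strand. The core in the inner ATF7 window begins at base 2 and lies 189 to 193 bp from the summit, within the peak. Of the 2971 listed peaks whose summit windows lack the core, 91.2% had a lower fold enrichment than ATF7. The median was 7.10-fold for peaks without the core and 11.07-fold for peaks with it. Over all windows, the core was in 35.7% of those that overlap a listed peak and in 18.2% of the others. The GC content moved with this difference, with medians of 66.0% and 51.3%, and its part in the result was not tested.

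The windows inside the peaks of JDP2 were richer in GC than those of ATF7. The 3 JDP2 windows had 64.3%, 75.7% and 86.3% GC and 26, 36 and 49 CpG dinucleotides, and the last exceeded 99.9% of all windows in GC. The ATF7 windows had 62.0% to 63.3% GC and 17 to 21 CpGs, against medians of 58.7% GC and 14 CpGs over all windows. Windows that overlap a listed peak had medians of 66.0% GC and 27 CpGs, and the ATF7 windows were below both. The listed windows of CREB5 and ATF3 all lay outside their peaks. The nearest to the summit had 41.7% GC and 5 CpGs at CREB5, and 46.3% GC and 1 CpG at ATF3.

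The peaks around the members differed in number and strength. Within 500 kb there were 22 other listed peaks around ATF7, 12 around JDP2, 11 around ATF3, 2 around ATF2 and none around CREB5. The list holds a single peak for each gene name and none far from genes, so these counts depend on how many genes lie nearby. ATF2 was above both of its neighbours in fold enrichment, ATF7 was exceeded by 1 peak, ATF3 by 2 and JDP2 by 9. The nearest other summit to CREB5 was 547773 bp away, farther than for 97.8% of listed peaks, whose median was 39712 bp. This distance too depends on the form of the list, as CREB5 covers 526574 bp and no second peak could be listed under its name.

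On one side of ATF2, 13739 bp from its summit, the next listed peak was at ATP5MC3, which encodes subunit c of ATP synthase, with 6.57-fold enrichment and 94 tags. On the other side the next was at CHN1, a gene for a Rac GTPase-activating protein, 162636 bp away at 3.92-fold. For ATF7 the next peaks were at ATP5MC2, another subunit c gene, 49549 bp away at 9.26-fold with 249 tags, and at TARBP2, encoding a partner of Dicer, 125111 bp away at 7.70-fold. ATF7 thus had 1.63 times and ATF2 2.23 times the fold enrichment of the neighbouring subunit c gene. The 1 peak above ATF7 within 500 kb was in the noncoding gene LOC105369774, 101190 bp away at 26.30-fold, and is named after its value was seen. The only other annotated gene with an end within 10 kb of the ATF7 summit was the pseudogene RPL31P51, at 6379 bp. The next listed peaks to CREB5 were at JAZF1, a zinc finger gene, 569876 bp away with 7.89-fold enrichment and 23 tags, and at TRIL, which encodes a Toll-like receptor interactor, 547773 bp away with 3.08-fold enrichment and 406 tags.

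ATF3 and JDP2 each lay near a BATF gene, a bZIP partner of JUN. BATF3 was 77725 bp from the ATF3 summit and had a peak of its own, at 8.95-fold with 24 tags, so ATF3 had 28.5 times its tags and 1.26 times its fold enrichment. The next listed peaks to ATF3 were at GARIN4, 17124 bp away with 9.47-fold enrichment and 31 tags, and at LOC105372907, 136609 bp away at 5.80-fold. JDP2 lay between FOS and BATF, which are named here for their place and not by the rule. The FOS peak was 149221 bp from the JDP2 summit, with 13.22-fold enrichment and 808 tags, so JDP2 had 0.564 times the fold enrichment and 0.403 times the tags of FOS. No listed peak was matched by name to BATF, and the listed summit nearest to the gene, of the noncoding LOC105370572, was 7252 bp from an end of it with 8.36-fold enrichment and 38 tags. That peak, 87289 bp from the JDP2 summit, was also the next to JDP2 on that side, and LINC01220 (133663 bp away, 21.91-fold, 400 tags) was the next on the other.

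**Figure D4:**
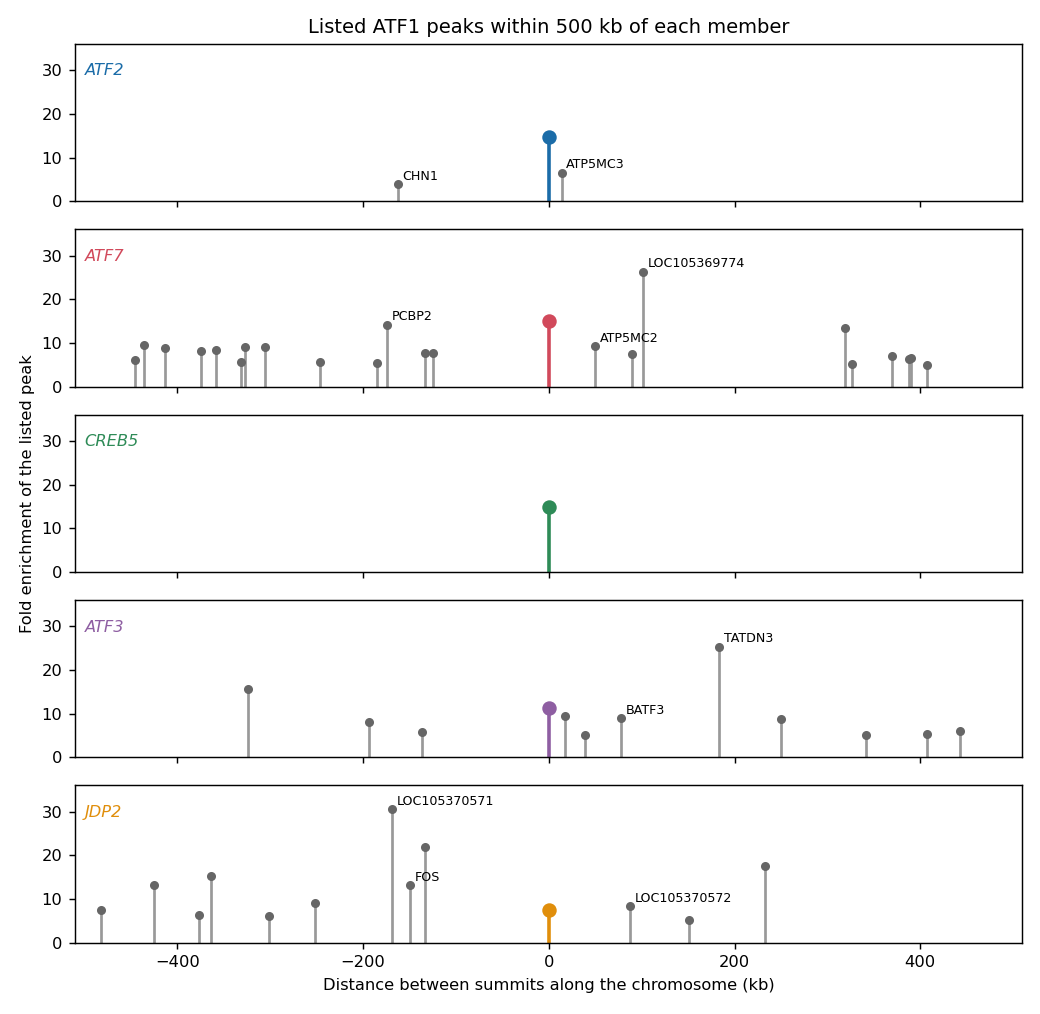
Fold enrichment of each listed peak within 500 kb of a member, by distance between summits in kb; the coloured point is the member and grey points are other listed peaks. CREB5 stands alone, and JDP2 is below 9 of its 12 neighbours.

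By distance to outer gene ends, the other bZIP genes mostly had peaks at gene ends, unlike CREB5 and ATF3. Outer ends take no account of starts inside a gene, so the contrast does not compare distances to promoters. Of 31 bZIP relatives and partners, 27 were listed (87.1%, interval 70.2 to 96.4%), against 60.9% of all protein-coding genes. Of these 27, 22 had a gene-end peak (81.5%, interval 61.9 to 93.7%), against 60.3% of all listed peaks with a matched gene, and 12 (44.4%) had at least 10-fold enrichment, against 23.9% of all listed peaks. Their median was 8.95-fold with 500 tags, against 14.62-fold and 326 tags for the 5 members. The strongest were DDIT3, a stress-induced factor of the C/EBP family, at 21.36-fold, CREM and CREB1, the closest relatives of ATF1, at 16.05-fold and 15.48-fold, and JUN, a dimer partner of ATF2, at 13.58-fold. The 5 without a gene-end peak were FOSL2, CREB3L2, MAFG, CREB3L1 and FOSB, named after their values were seen, with summits 2460 to 13481 bp from a gene end and enrichments of 5.26-fold to 8.95-fold. No listed peak was matched by name to ATF6, BATF, BATF2 or CREB3L4.

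Of 15 stress kinase genes of the JNK and p38 cascades, which act on ATF2 and ATF7, 10 were listed (66.7%, interval 38.4 to 88.2%), near the 60.9% of all protein-coding genes. Of these, 9 had a gene-end peak (90.0%, interval 55.5 to 99.7%), against 60.3% of listed peaks with a matched gene. Their median was 6.28-fold with 362 tags, and 2 of the 10 had at least 10-fold enrichment, near the 23.9% of all listed peaks. MAPK8, which encodes the kinase JNK1, had 14.31-fold and 668 tags with the summit 38 bp from the gene's end. MAPK9, which encodes JNK2, had 10.19-fold and 77 tags, 20126 bp inside the gene. MAP3K7, the kinase TAK1, had 9.37-fold and MAP2K7, a direct activator of JNK, 8.06-fold. No listed peak was matched by name to MAP2K4, MAP2K6, MAP3K20, MAPK11 or MAPK12.

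**Figure D5:**
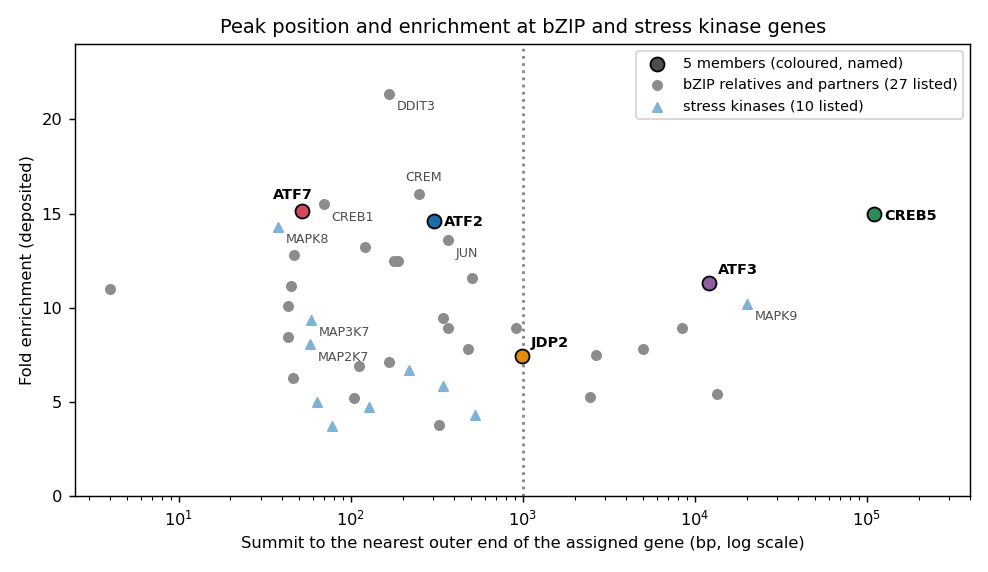
Fold enrichment against the distance in bp from summit to the nearest outer end of the assigned gene (log scale) for the 5 members, 27 listed bZIP relatives and partners and 10 listed stress kinase genes; the dotted line marks 1 kb. CREB5 and ATF3 lie right of the line at 14.97-fold and 11.32-fold, and the bZIP relatives right of it reach at most 8.95-fold. Outer ends take no account of starts inside a gene.

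The listed peaks most like each member were found by the sum of the absolute log2 ratios of fold enrichment, tags and length. For ATF2 they included KDM4A and MTM1 (sums of 0.09 and 0.12), and for ATF7 MTM1 and BDKRB2 (0.07 and 0.14). For CREB5 they were GCSH, PPP1R3F and C9orf43 (0.05 to 0.19), each with its summit within 119 bp of a gene end. For ATF3 they were STK11, CFAP99 and LINC01311 (0.12 to 0.25), all within 116 bp of a gene end and with scores of 305.23 to 623.27, below the 1469.84 of ATF3. For JDP2 they were LOC101927795, TFDP2 and SPRYD7 (0.05 to 0.13). Likeness was measured within 1 library and rests on these 3 measures alone.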

How the data were processed

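A single ChIP library for 3xFlag-tagged ATF1 in HCT116 cells was analysed through its peak table; the input DNA and the nonspecific IgG named in the protocol were not analysed here. The submitters' processing notes name the tools CASAVA, Bowtie2 and bedtools and the build hg38. For the peak caller and its settings, the sources used here give no name. Tags were deposited as unnormalised counts, in whole numbers for each peak. Per the file headers there is also a fold enrichment, a ratio whose background is not stated (lowest value 3), and a score (lowest value 50). These 2 were made by the authors and served here for describing and ranking peaks of this list. Library depth is unknown.

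The 5 members and the lists were chosen with earlier results of these data known. Listed names were matched by symbol or older name to RefSeq genes of GRCh38.p14 (93.96% of 15064 peaks); 1 line without a position was left out. A gene-end peak had its summit within 1 kb of either outer end. Promoter windows and microRNAs came from RefSeq tables of the same assembly; 4 of the 5 members had windows. Named genes were the members, the next listed peak on each side, genes with an end within 10 kb, the 4 strongest of each list, and the 3 most similar peaks; others are said to be chosen after their values. A gene that the rule takes is not reported here. Shares have exact binomial intervals and tags exact Poisson intervals at 95%, covering counting error only. No test was run, as each group is 1 library. Motif matching was tested on simulated sequences, and ranking was checked at known positions in the real fold enrichment values. Alternatives changed the window, the ends, the ranking measure, the comparison set, the neighbour distance and the motif. Python 3.11.15, numpy 2.4.6, pandas 2.3.3, scipy 1.17.1 and matplotlib 3.10.9 were used.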

Additional observations from a re-analysis of the deposited data

How the results depend on the processing

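The count of members with a gene-end peak was 3, and it was 2 with a 500 bp window, with the ends in the authors' table or with listed starts, and 3 in the other 3 settings. The median over members of the share of peaks below each was 89.6% by fold enrichment, 85.4% by score, 77.0% by tags and 75.9% by length. It was 84.9% within the same class, 86.6% among peaks of at least 5-fold and 85.6% among peaks of similar length. For single members the lowest and highest share over 7 alternatives, leaving out the ranking of all peaks by fold enrichment, were 51.3% and 94.8% for ATF2, 49.3% and 87.5% for ATF7, 79.7% and 97.0% for CREB5, 76.8% and 96.9% for ATF3, and 44.0% and 77.0% for JDP2. Leaving out 1 member at a time kept the median fold enrichment between 12.97 and 14.79. The members had 7 other listed peaks within 100 kb in all, 4 within 50 kb and 47 within 500 kb. Windows of members with a match numbered 0 for the full CRE, 2 for the 5-letter core, 1 for the AP-1 site, and 1 each for the 7-letter and 6-letter forms. The authors' gene ends, the listed starts, the sets of deep and of gene-end peaks and the 2 shorter CRE forms were chosen after seeing the data. The cause of each shift was not tested. No paired analysis was possible because each group has 1 library. The read depth is unknown, so a gene missing from the list is not shown to be unbound.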
